A study of Rattus norvegicus with 10 samples.

Results

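Plac9 (placenta-specific 9) was described across 10 hippocampal libraries of male Sprague-Dawley rats, 5 taken 1 week after traumatic brain injury (TBI) and 5 taken 1 week after sham surgery. Fluid percussion injury, used here, drives a brief pulse of liquid against the dura through an opening in the skull. All animals took a learning test before the tissue was collected. The labels name neither an age nor a line of rats other than Sprague-Dawley, which is an outbred stock, and do not state whether the libraries came from different animals. The gene was found by its symbol: 1 of the 25269 loci of the deposited table, XLOC_009157, carried the name Plac9, 0 loci named it together with other genes, and there was no second row of that name. The gene was chosen by its FPKM difference between injured and sham libraries in earlier results on these data, so its levels are given as a description with no test.

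Plac9 encodes a small protein with a signal sequence for secretion and was named for its expression in placenta. The hippocampus is bordered by meninges, choroid plexus and the ependymal lining of the ventricle, whose cells carry bundles of motile cilia, so a dissected piece can hold those cells in varying amounts. In bulk tissue, fewer cells of a type and less RNA per cell cannot be told apart.

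The promoter of the gene is shown because Plac9 was the locus with the largest drop in the table. RefSeq places it on chromosome 16 of the GRCr8 assembly, at chr16:1481003-1481302 on the minus strand, from 250 bases before to 50 bases after the transcript start. It is given 5′ to 3′ in lower case, with capitals for the letters of the motifs found.
Plac9: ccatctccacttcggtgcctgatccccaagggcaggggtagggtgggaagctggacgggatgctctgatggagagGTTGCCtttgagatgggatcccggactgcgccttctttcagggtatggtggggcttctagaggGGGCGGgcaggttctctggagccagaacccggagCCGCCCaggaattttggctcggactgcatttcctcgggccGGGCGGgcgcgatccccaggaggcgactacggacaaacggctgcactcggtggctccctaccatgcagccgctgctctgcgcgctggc
Of 5 short motifs sought on both strands, 2 were present. The GC box GGGCGG, bound by Sp1 and related factors, stood 2 times on the gene's strand and 1 time on the other, and 33.1% of 33469 RefSeq promoters of this length hold it at least once. The half-site GTTGCC of RFX factors, which act on genes of cilia, stood once, and 12.2% of the promoters hold it at least once on either strand. None of the matches in the Plac9 window overlapped. The letters of TATAAA (in 14.2% of the promoters), CCAAT (37.5%) and the forkhead site GTAAACA (3.78%) were not found. The window had 65.0% G and C, against a median of 51.7% over all promoters, and 20 CG pairs against a median of 7. These motifs were chosen after the sequence and the values had been seen, and a match in letters is a description only.

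The question put to the gene is how its RNA level differed after injury. Plac9 was measured at 3.09, 0.882, 0.947, 3.14 and 2.27 FPKM in TBI 1 to TBI 5, against 25.3, 43.2, 31.7, 4.22 and 36.9 FPKM in sham 1 to sham 5. FPKM is the number of sequenced fragments per kilobase of a transcript, relative to the size of the library. All 5 injured libraries lay below all 5 sham libraries, but sham 4 stood far below the other sham libraries and close to the injured ones. The lowest of the other 4 sham libraries was 6.0 times sham 4, whereas sham 4 was 1.34 times the highest injured library.

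**Figure D1:**
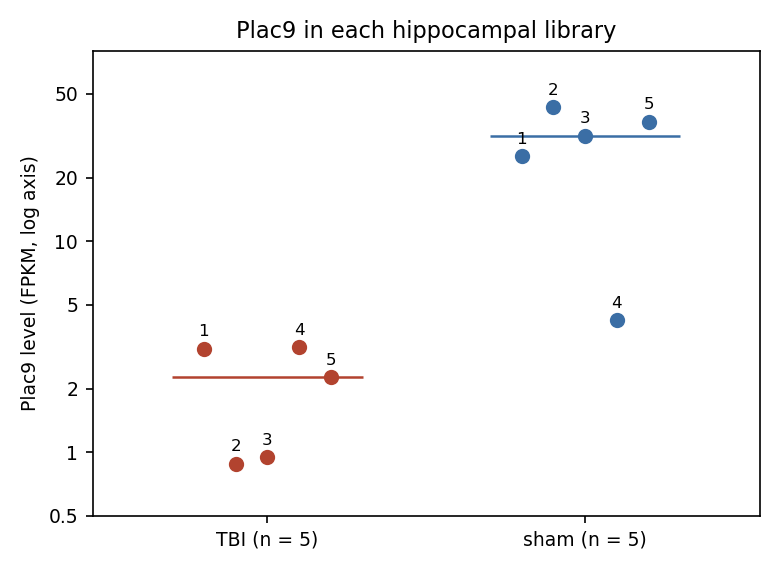
Plac9 level in FPKM (log axis) in the 5 TBI and 5 sham libraries, each point a library with its number and each line a group median. The TBI libraries lie between 0.882 and 3.14 FPKM, sham 4 lies at 4.22 and the other 4 sham libraries lie between 25.3 and 43.2.

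The mean was 2.07 ± 1.11 FPKM after TBI and 28.2 ± 15.0 FPKM in sham (SD, n = 5 each), and without sham 4 the sham mean was 34.3 ± 7.60 (n = 4). The sham mean was 13.7 times the TBI mean. On the scale of log2(FPKM + 0.5) the group means were 1.24 after TBI and 4.52 in sham, a difference of -3.29 with a pooled SD within groups of 1.05. Without sham 4 the difference was -3.86. Within the groups the SD on this scale was 0.69 after TBI and 1.31 in sham, and 0.32 in sham without sham 4. The spread within groups was larger than at 97.1% of the 16889 loci with a mean of at least 0.5 FPKM, whose median SD was 0.23.

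The place of the gene among all loci of a library shifted in the same way. In the injured libraries 51.9%, 40.9%, 40.8%, 53.7% and 50.1% of the loci had lower values than Plac9. In sham 1, 2, 3 and 5 the share was 85.0%, 91.0%, 88.0% and 89.5%, and in sham 4 it was 57.3%. Plac9 was thus a mid-ranking locus in 6 libraries and a high-ranking one in the other 4.

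Plac9 had the largest log2 difference in size of all 16889 loci, and 0 loci exceeded it in either direction. Groups without overlap and lower after TBI were found at 40 loci, 0.237% of those tested, and the choice of Plac9 used this contrast. Of these 40 loci Plac9 alone differed by 1 or more on the log2 scale. Next in order was the shared locus of the microRNA genes Mir132 and Mir212, at -3.01, where the groups overlapped. It was at 1.05 to 2.24 FPKM after TBI, and in sham at 292 and 438 FPKM in sham 2 and sham 5 but at 0.935 to 2.77 FPKM in sham 1, sham 3 and sham 4. The largest difference upward was that of Ttr, a choroid plexus transcript, at 2.83, also with overlap. Over all loci tested, limma with Benjamini-Hochberg adjustment called 0 (0.0%), and 477 (2.82%) had an unadjusted p under 0.05. Without sham 4 the count after adjustment was 1, the locus of Plac9, which is no test of the gene because this contrast chose it.

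Genes that lie close to Plac9 had small differences. In GRCr8 the annexin gene Anxa11, a phospholipid-binding protein, is the next gene on one side. It was at 51.6, 78.9, 98.0, 75.8 and 88.9 FPKM in TBI 1 to TBI 5, against 57.5, 70.5, 71.0, 68.0 and 69.6 FPKM in sham 1 to sham 5. The groups overlapped, with both the lowest and the highest value among the injured libraries, and the log2 difference was 0.19 (SE 0.15, limma adjusted p = 0.988). Of the 5 genes on each side of Plac9 in GRCr8, Zcchc24 was the other one matched by symbol in the table. Its log2 difference was -0.16 (SE 0.14, limma adjusted p = 0.988). Sham 4 did not stand apart at either gene.

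Loci with numbers next to that of Plac9 were examined as well. In the table, 98.4% of consecutive named loci lie on the same chromosome in GRCr8. Of the named loci near Plac9 in number, 15 of 15 with a chromosome there lie on chromosome 16. A close number does not by itself mean a close gene. Anxa11 and Zcchc24, which lie near Plac9 in GRCr8, are XLOC_009439 and XLOC_009431, far from XLOC_009157 in number. Of the 20 loci within 10 numbers of Plac9, 19 were tested, and 0 passed limma's test after adjustment against 0.0% of all loci. At an unadjusted p under 0.05 there was 1 of the 19, against 2.82% of all loci. It was an unnamed locus 8 numbers below Plac9, with a log2 difference of 0.89. Its r with Plac9 was 0.80 within groups and -0.23 over the 10 libraries, and its lowest value, 0.302 FPKM, was in sham 4. Their log2 differences ran from -0.36 to 0.89 with a median of 0.05, 6 below and 13 above 0, and at none of them were the groups free of overlap. Fam213a, 1 number below Plac9, was at 19.6 ± 0.989 FPKM after TBI and at 17.0 ± 2.24 FPKM in sham (SD, n = 5 each), a log2 difference of 0.20 (SE 0.09). GRCr8 lists Fam213a as an older name of 2 genes, Tmem254 and Prxl2a, so which of them this locus covers is not certain. Wnt5a, a secreted Wnt ligand 1 number above Plac9, was at 0.971 to 3.08 FPKM after TBI and at 1.16 to 2.08 FPKM in sham (log2 difference 0.10, and -0.10 without TBI 1).

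**Figure D2:**
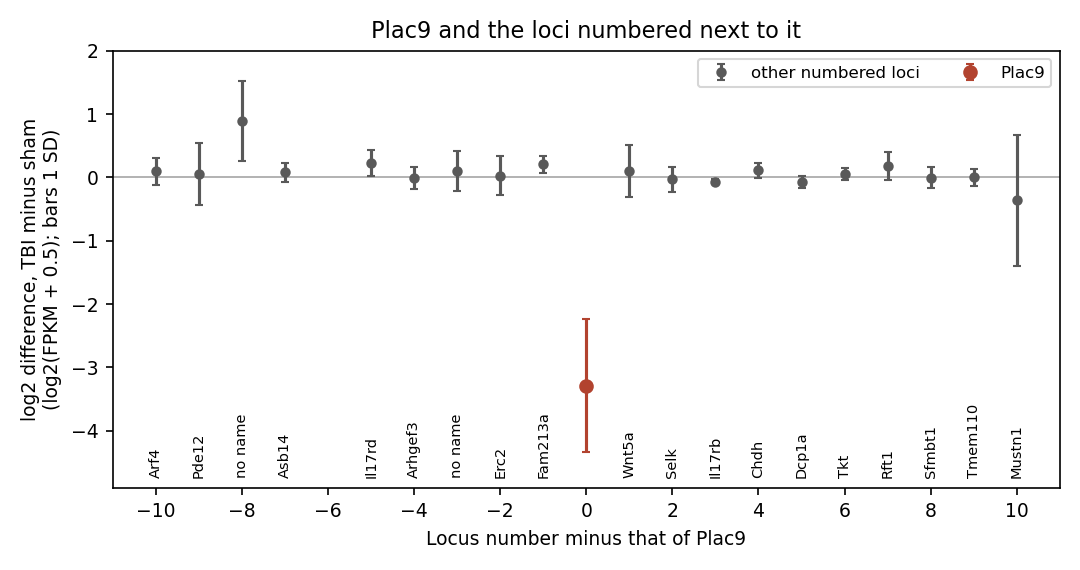
Log2 difference, TBI minus sham, of log2(FPKM + 0.5) for Plac9 and the 19 tested loci within 10 locus numbers of it, with bars of 1 pooled SD within groups (5 libraries each). Plac9 lies at -3.29 and the other loci between -0.36 and 0.89.

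Other genes with a placenta-specific name share that name and not a family with Plac9. Plac8 was at 0.0866 to 1.78 FPKM after TBI and at 0 to 1.34 FPKM in sham, and both loci named Plac1 were listed at 0 in all 10 libraries. Plac8l1 matched no locus.

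The genes whose levels ran most like those of Plac9 were sought among 11063 loci that name a single gene and average 1 FPKM or more. Likeness was measured as Pearson's r over the 10 libraries on the log2 scale, as a description with no p, since genes were picked for it. Plac9 falls into 2 separate sets of libraries, 4 high and 6 low, and r over all 10 mainly follows that gap. Only 6 genes had an r above 0.8 and 11 had one below -0.8.

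Magi3, a membrane-associated scaffold protein, had the highest r, 0.95 (Spearman's rho 0.94). It was at 7.09, 6.78, 6.87, 6.88 and 7.13 FPKM in TBI 1 to TBI 5, against 8.05, 8.13, 8.11, 7.70 and 8.20 FPKM in sham 1 to sham 5. The groups did not overlap and sham 4 was the lowest sham library, as for Plac9, but the log2 difference was only -0.20 (SE 0.06, limma adjusted p = 0.988). Magi3 shared much of the order of the libraries with Plac9 at a far smaller difference.

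The lowest r was that of Ick, named Cilk1 in GRCr8, a kinase of the primary cilium, at -0.97 (rho -0.82). Ick was at 6.54, 7.40, 7.04, 6.62 and 6.82 FPKM in TBI 1 to TBI 5, against 5.58, 5.50, 5.29, 7.04 and 5.30 FPKM in sham 1 to sham 5. Sham 4 lay within the range of the injured libraries, while the other 4 sham libraries lay below all of them. The direction was opposite to that of Plac9, for which sham 4 lay near the injured libraries but outside their range. The log2 difference of Ick was 0.25 (limma adjusted p = 0.988), and without sham 4 its r was -0.99.

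The other 9 genes with the highest r had values of 0.76 to 0.85. They were the ribosomal protein Rps23, Tm2d3, the lipid-metabolic enzyme Pnpla1, the spliceosome-associated Cactin, the interleukin-25 receptor Il17rb, the co-chaperone Dnajb1, Adc (antizyme inhibitor 2), the mitochondrial ribosomal protein Mrpl53 and the SUMO ligase Pias4. Pnpla1 had the widest difference among them. It was at 0.203, 1.13, 0.443, 0.420 and 0.600 FPKM in TBI 1 to TBI 5, against 2.79, 2.43, 2.91, 0.475 and 6.22 FPKM in sham 1 to sham 5. Sham 4 lay among the injured libraries and the other 4 sham libraries lay above them all, whereas for Plac9 sham 4 lay above the injured range. Its log2 difference was -1.52 (SE 0.44, limma adjusted p = 0.988). Il17rb stands 3 locus numbers from Plac9, with 17.3 ± 0.514 FPKM after TBI and 18.2 ± 0.525 FPKM in sham (SD, n = 5 each), a log2 difference of -0.07. Next to Ick among the lowest were Ash2l, a subunit of histone methyltransferase complexes, Ap1s3, a subunit of a clathrin adaptor, the kinase Rps6ka1, the immune checkpoint protein Cd276 and the histone demethylase Kdm4a, with r of -0.87 to -0.83. None of these 16 genes passed limma's test after adjustment.

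**Figure D3:**
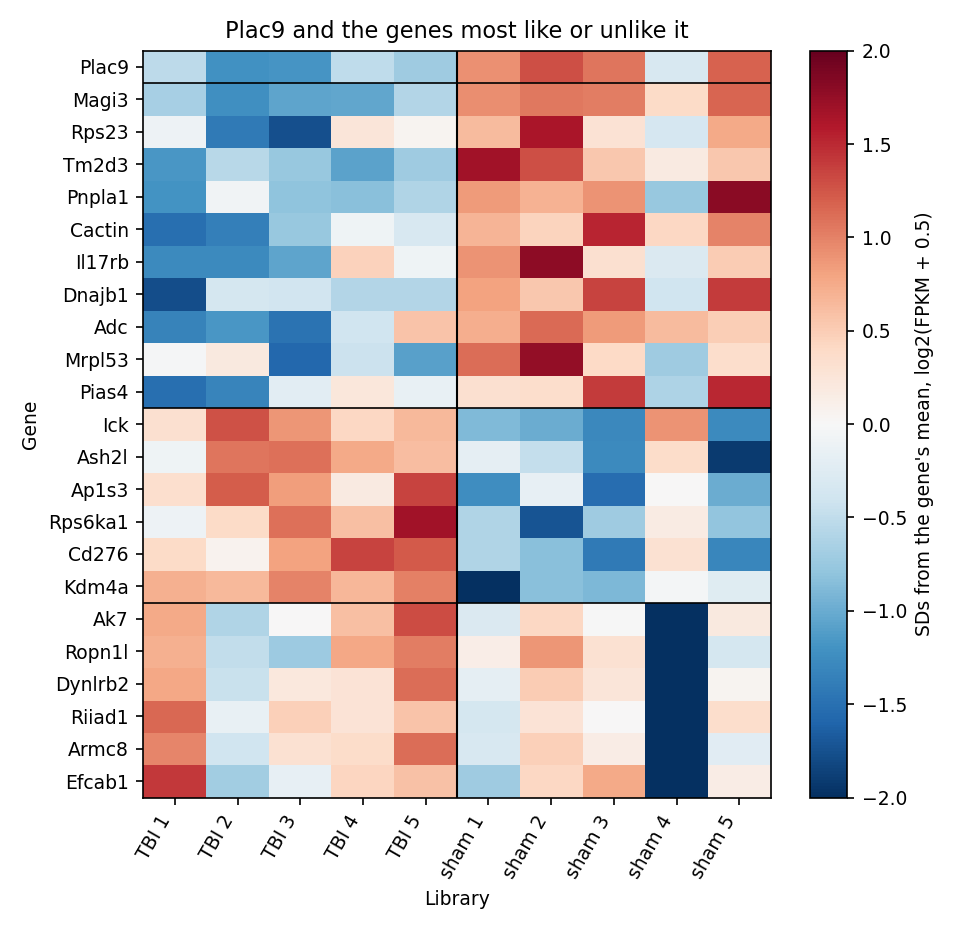
Levels of Plac9, the 10 genes with the highest r, the 6 with the lowest r and the 6 with the highest r within groups, as SDs from each gene's mean of log2(FPKM + 0.5) in the 10 libraries; colours end at 2 SDs either way. Sham 4 resembles the injured libraries for Plac9, Pnpla1 and Ick and is the lowest library for the last 6 genes.

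When the mean of each group was subtracted first, so that the difference between groups played no part, other genes had the highest r. Some genes of the first ranking stayed close to Plac9, with an r within groups of 0.85 for Magi3 and -0.96 for Ick. It was 0.28 to 0.80 for the other genes with the highest r over all libraries. For the others with the lowest it was -0.71 to -0.37. The 6 with the highest r within groups were Ak7, Ropn1l, Dynlrb2, Riiad1, Armc8 and Efcab1, with r of 0.91 to 0.94, and 53 genes exceeded 0.8. Of the 6, Ak7 is an adenylate kinase, Dynlrb2 a dynein light chain and Efcab1 a dynein regulator of motile cilia, and Ropn1l is a protein of cilia and sperm tails. No ciliary role is stated here for Riiad1 and Armc8, and the rest of the 53 genes are not described as a set. Ak7 was at 3.58, 1.38, 2.16, 3.25 and 5.11 FPKM in TBI 1 to TBI 5, against 1.75, 2.85, 2.13, 0.173 and 2.45 FPKM in sham 1 to sham 5. Sham 4 was the lowest of all 10 libraries, and TBI 2 was the lowest injured one. Over all 10 libraries r was between -0.04 and 0.20 for these 6 genes, and none of them followed the gap between the groups. Without sham 4 their r within groups was 0.66 to 0.82.

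Lists of cell type markers were set beside Plac9 in the same way. Their r with it is a description with no p, since the genes with the highest r within groups, some of them ciliary, had been seen first. Of 149 markers in 10 lists, 137 matched a locus and 129 were tested, and 0 of these passed limma's test after adjustment. The score of a list in a library averages, over its tested members, the log2 value less the member's mean over the libraries. The ependymal list had 7 tested members of 12, among them Foxj1, the transcription factor that sets up motile cilia, Ccdc153 and Tmem212. Its score was 0.70, -0.58, 0.11, 0.30 and 0.88 in TBI 1 to TBI 5, against -0.41, 0.52, 0.07, -1.44 and -0.15 in sham 1 to sham 5. Sham 4 had the lowest score of the 10 libraries and TBI 2 the lowest of the injured ones. The groups overlapped widely, and 6 of the 7 members had a higher mean after TBI, the opposite direction to Plac9, with a median log2 difference of 0.70 against 0.00 over all loci tested.

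**Figure D4:**
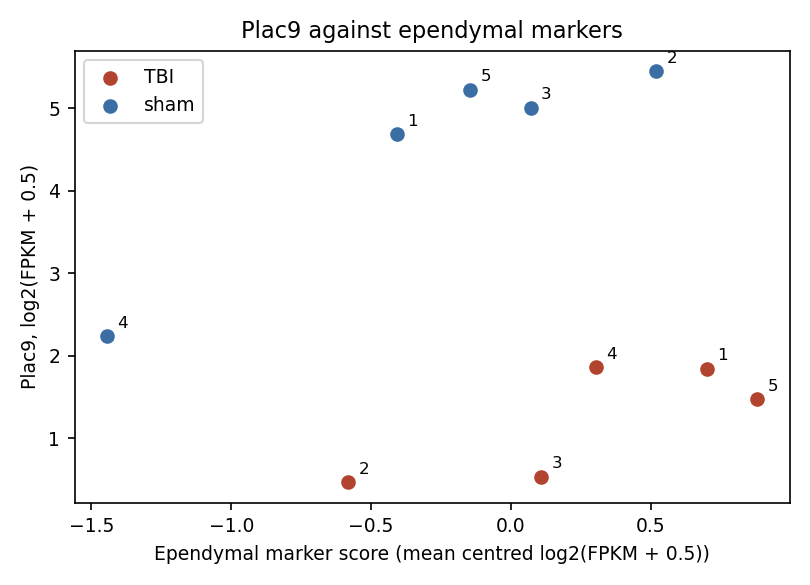
Plac9 as log2(FPKM + 0.5) against the ependymal marker score in the 10 libraries, numbered within group. Sham 4 has the lowest score, -1.44, and the lowest Plac9 of the sham libraries, while the injured libraries lie below the other sham libraries over an overlapping range of scores.

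Within groups, Plac9 and the ependymal score had a Pearson r of 0.88 over the 10 libraries, and by ranks within groups rho was 0.75. Without TBI 2 and sham 4, the 2 libraries farthest from the median score once group means were subtracted, r was 0.62. Without sham 4 alone it was 0.77. Of the 7 members, 6 had an r within groups above 0.5, compared with 6.94% of all loci tested, and the exception was Rarres2 at -0.35. Foxj1 was at 3.53 to 24.2 FPKM after TBI and at 1.61 to 22.3 FPKM in sham, with its lowest value in sham 4 and the next lowest in TBI 2. Dynlrb2 is both a member of the list and 1 of the 6 genes picked for their r within groups, and without it the r of the other 6 members' score was 0.85, or 0.77 without sham 4. The part of ependymal content in the level of Plac9 was not tested.

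The choroid plexus list, which has 17 tested members, also differed between libraries. Its score was -3.01 in TBI 2 and 1.10 to 2.92 in the other injured libraries, against -3.10, -2.59 and -2.20 in sham 1, sham 4 and sham 5 and 1.23 and 2.27 in sham 3 and sham 2. High Plac9 was found both in sham 2, with much choroid plexus RNA, and in sham 1 and sham 5, with little. The r within groups was 0.57 and rho was 0.75. Without TBI 2 and sham 2, the 2 libraries farthest from the median score once group means were subtracted, r was 0.40. Without sham 4 alone it was 0.66. Of the 17 members, 14 had an r within groups above 0.5, compared with 6.94% of all loci tested. All 17 members had a higher mean after TBI, with a median log2 difference of 1.79 and 0 past adjustment.

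Markers of the vessel wall and meninges had other patterns across the libraries. The fibroblast list, with Dcn, Lum and Col1a1, scored 1.56 in TBI 1 and -0.92 to -0.11 in the other injured libraries, against 1.10 in sham 2, 1.53 in sham 4 and -1.23 to -0.69 in the other sham libraries. The pericyte and smooth muscle list was highest in sham 4 (0.95) and TBI 1 (0.93), and sham 4 also had the highest endothelial score (0.57). Sham 4 was thus rich in vascular and meningeal markers where Plac9 was low. Sham 2, with the highest Plac9, was also high for the fibroblast, pericyte (0.41) and endothelial (0.27) lists, while sham 5, with the next highest, was low for the fibroblast list. The r within groups was -0.22 for the fibroblast list, -0.35 for the pericyte list and -0.32 for the endothelial list. Without sham 4 those values were 0.61, 0.41 and 0.69, so their sign rests on that library. By ranks within groups rho was 0.30, -0.35 and 0.30. TBI 1 and sham 4 were the 2 libraries farthest from the median score once group means were subtracted. Without both, r was 0.46, 0.04 and 0.59. Of the 17 tested endothelial members, 14 had a lower mean after TBI, the same direction as Plac9, with a median log2 difference of -0.26. At an unadjusted p under 0.05 there were 3, against 2.82% of all loci, and 0 passed adjustment. Cldn5, a claudin that seals junctions between brain endothelial cells, was at 54.3, 51.9, 46.8, 45.3 and 47.7 FPKM in TBI 1 to TBI 5, against 61.3, 67.2, 62.0, 82.4 and 68.5 FPKM in sham 1 to sham 5. Its groups did not overlap, with a log2 difference of -0.46 (SE 0.09, limma adjusted p = 0.988), but sham 4 was its highest library, and its r with Plac9 was 0.61 over the 10 libraries and -0.62 within groups. Cldn5 was the only 1 of the 17 members without overlap. The groups overlapped for the endothelial markers Pecam1 (log2 difference -0.04, SE 0.17) and Cdh5 (-0.34, SE 0.32). For the fibroblast list 10 of 20 members had a lower mean after TBI (median log2 difference -0.04), and for the pericyte list 12 of 16 (median -0.20). The part of vascular or meningeal content in the level of Plac9 was not tested.

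**Figure D5:**
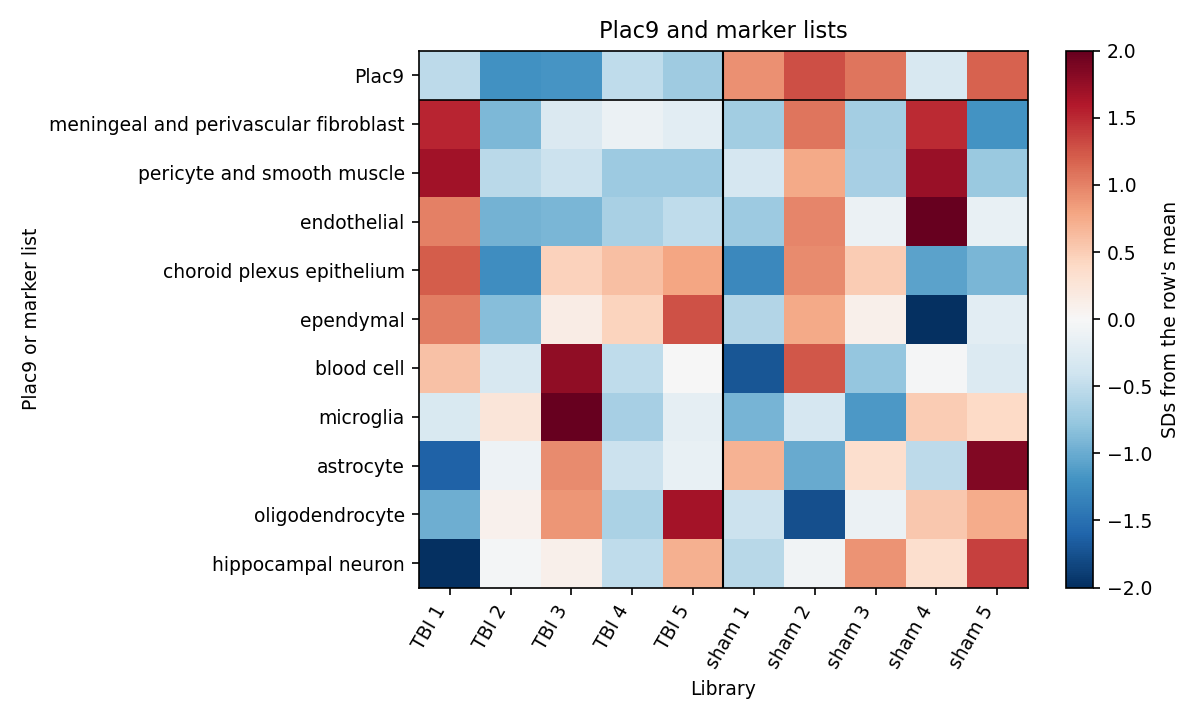
Plac9 and the scores of 10 marker lists in the 10 libraries, as SDs from each row's mean; colours end at 2 SDs either way. Sham 4 is lowest for the ependymal list and high for the fibroblast, pericyte and endothelial lists, and TBI 1 is above the mean of the row for these 4 lists.

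For the remaining lists (blood cells, microglia, astrocytes, oligodendrocytes and hippocampal neurons) the r within groups lay between -0.52 for microglia and -0.0033 for astrocytes. The astrocyte value rests on sham 4, without which it was -0.56. Without that library r was -0.52 for microglia, -0.39 for oligodendrocytes, -0.31 for neurons and 0.05 for blood cells. The neuronal markers Slc17a7, Prox1 and Gad1 were present in every library, with Slc17a7, a vesicular glutamate transporter, at 552 to 1078 FPKM after TBI and at 695 to 969 FPKM in sham. The red cell gene Slc4a1 was at 0.142 FPKM or less in all libraries, too low to be tested. Other red cell members of the blood list were higher. The shared locus of Hba1 and Hba2 was at 232 to 992 FPKM after TBI and at 147 to 777 FPKM in sham. The locus of Hbb was at 181 to 614 and at 82.0 to 371 FPKM, and Alas2 at 0.938 to 3.98 and at 0.633 to 2.38 FPKM. Column sums of FPKM were 523239 to 629660. Read depth is unknown, so precision rests on the spread between libraries, and p-values measure that spread only.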

How the data were processed

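Polyadenylated RNA of 10 rat hippocampal libraries was sequenced on a HiSeq instrument, per the labels' protocols. What the authors deposited is FPKM per locus, with a status word beside each value. The submitters' processing notes name the aligners Bowtie, Bowtie2, TopHat and TopHat2, the programs Cuffdiff and Cufflinks, and rn5 as the build. The role and version of each, the annotation and any filter were not given in the sources used here. All Plac9 values had the status OK. The 75th percentiles of the deposited columns were 13.1 to 13.5 FPKM, and how libraries were scaled was not given. FPKM carry no strand, so overlapping genes cannot be told apart, and no read count could be recovered.

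Groups came from the labels. Values were analysed as log2(FPKM + 0.5), which understates changes of low genes. All 16889 loci with a mean of at least 0.5 FPKM were tested with limma 3.58.1 in R 4.3.3 (mean trend, two-sided, Benjamini-Hochberg adjusted p under 0.05), a procedure tested on simulated data. Correlations with Plac9, over all libraries or within groups, are given as descriptions. For the list scores, p-values from permuting libraries within groups were also computed. They are not given, because genes with a high r within groups had been seen first. Alternatives covered each library left out, the pseudocount, filter and scaling, library weights, the variance trend, a replicate block and a term for libraries numbered 1.

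Plac9 and the lists were chosen with earlier results of these data known. Named genes are those with the highest (10) and lowest (6) r with Plac9, the 6 highest within groups, defining members of each list, Plac-named genes, loci next to Plac9 by number or in GRCr8, and the next locus in the order of differences; some genes so chosen are not described. List symbols were matched without regard to case, 1 through a synonym. Names, gene order and the promoter come from RefSeq tables of GRCr8, another build than the files', and no gene coordinates are taken from it beyond the promoter window.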

Additional observations from a re-analysis of the deposited data

Results flagged for a closer look

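A single library far from the other 4 of its group was sought by Dixon's criterion for 5 samples. For genes it was found in 4 of 58 groups in FPKM and in 10 of 58 on the scale of log2(FPKM + 0.5). It was also found for 2 of the list scores. The 58 groups cover a part of the named genes, without defining markers such as Dcn, Col1a1 and Ccdc153. Among those left out, Col1a1 was at 30.5 FPKM in TBI 1, against 2.39 to 3.54 FPKM in the other injured libraries. For independent groups chance gives about 1 in 20. That rate is no yardstick here, because many of the named genes were picked for their r with Plac9. Plac9 is itself low in sham 4, so its flags and theirs in that library are not independent. For Plac9 the outcome depends on the scale: in sham the gap below the next library took 0.541 of the range in FPKM, short of the criterion of 0.71, and 0.764 on the log2 scale, where sham 4 was at 2.24, against 4.69 to 5.45 in the other sham libraries. Ick was at 7.04 FPKM in sham 4, against 5.29 to 5.58 FPKM in the other sham libraries. Wnt5a was at 2.08 FPKM in sham 4, against 1.16 to 1.42 FPKM in the others. Anxa11 was at 57.5 FPKM in sham 1, against 68.0 to 71.0 FPKM in the others. Dnajb1 was at 23.0 FPKM in TBI 1, against 26.2 to 26.9 FPKM in the other injured libraries. The pericyte and smooth muscle score was 0.93 in TBI 1, against -0.40 to -0.24 in the other injured libraries. The endothelial score was 0.28 in TBI 1, against -0.26 to -0.14 in the others. On the log2 scale, Dnajb1 in TBI 1 (4.56), Ick in sham 4 (2.92) and Anxa11 in sham 1 (5.86) stood apart as in FPKM, and Wnt5a did not. On that scale alone, sham 4 stood apart for Magi3, at 3.04, against 3.10 to 3.12 in the other sham libraries. It also did for Ak7, at -0.57, against 1.17 to 1.75 in the others, and for Dynlrb2, at 0.16, against 2.66 to 3.39. The same held for Riiad1, at 1.25, against 2.11 to 2.38 in the other sham libraries, and for Armc8, at -0.67, against 1.44 to 2.24. Erc2, a locus near Plac9 by number, was at 4.81 in TBI 1, against 5.61 to 5.92 in the other injured libraries. The log2 scale was added to this criterion after seeing the data.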

How the results depend on the processing

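The log2 difference of Plac9 kept its sign in all alternatives. Leaving out a library or changing the pseudocount could not reverse that sign, because the groups do not overlap. The difference ran from -3.86 (without sham 4) to -3.05 (without sham 2) when 1 library was left out. In the other settings it ran from -3.55 (pseudocount 0.1) to -3.04 (pseudocount 1). The number of loci past adjustment was 0 in all settings except without sham 4, where it was 1. Leaving out 1 library therefore gave 0 to 1. With a replicate block the difference was -3.29, the same as without it because the groups are balanced, and 0 loci passed (695 at an unadjusted p under 0.05). The labels tie libraries of the same number by that number alone. Their deviations correlated above 0.1 in 1 of 5 pairs, and 1 of 10 libraries correlated best with its own number. Whether the numbers mark a pairing or a batch cannot be told from so few pairs. The median size of r over the 16 genes, 0.84, ran from 0.81 under quantile normalization to 0.86 without TBI 1. The log2 difference of Wnt5a ran from -0.10 (without TBI 1) to 0.23 (without TBI 2), and the cause was not tested. The r of the ependymal score within groups ran from 0.77 to 0.91 with 1 library left out. Alternatives for r within groups and for Anxa11, Fam213a, Wnt5a and Il17rb were chosen after seeing the data. FPKM gives no read depth, so the counting error of the low injured values is unknown.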
